A study of Mus musculus with 20 samples.

Results

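Skin carcinomas that had formed in mice lacking p53 in the epidermis were compared with young epidermis of mice of the same genotype, before tumours had been detected. The comparison used 6 of the 20 libraries of the series, 3 carcinomas and 3 young epidermises, assigned to their groups by their labels, and it covered all genes. The mice of both groups carried K14cre and p53fl/fl, so that Cre recombinase, driven by the keratin 14 promoter of basal keratinocytes, deleted the floxed Trp53 alleles in the epidermis and its appendages. The carcinomas (PKO cSCC, cutaneous squamous cell carcinoma, n = 3) arose spontaneously and were collected when first seen during weekly checks, and the labels give no age for these mice. The young epidermis (PKO young, n = 3) came from mice 100 to 120 days old. In both groups cells positive for the fluorescent reporter tdTomato were sorted, and 5 ng of RNA per sample went into stranded total RNA libraries. Epidermis and carcinoma were dissociated by different published protocols. Replicates within a group are named biological in the labels. A matching pair of groups, DKO cSCC (n = 3) and DKO young (n = 3), from K14cre mice with floxed alleles of both Wwox and p53, shares no library with this comparison and was set beside it. The other libraries are young epidermis of wild-type (WT, n = 3) and Wwox-deleted mice (WKO, n = 3) and old wild-type epidermis (n = 2, from mice of 400 days or more).

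The epidermis is renewed from a basal layer of keratinocytes that express keratins 5 and 14, divide, and on leaving that layer switch to keratins 1 and 10 and build the cornified barrier. Wounded and tumour epidermis instead makes keratins 6 and 16 and matrix proteases. p53 is a transcription factor that halts the cell cycle or triggers cell death after DNA damage, and its loss is frequent in squamous carcinoma of the skin. Mouse epidermis also holds resident T cells and Langerhans cells, which a sort for keratinocytes can carry along.

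Total estimated counts of the 6 libraries ranged from 13837606 to 16227413, mitochondrial ribosomal RNA took 16.6% to 39.2% of them, and 18682 to 22613 genes had at least 1 count. Levels are CPM, counts scaled to a common library total, on TMM-scaled totals, and all log2 fold changes are carcinoma over young epidermis. Trp53 (ENSMUSG00000059552) stood at 4.38, 4.24 and 0.865 CPM in carcinoma libraries 1, 2 and 3. It stood at 5.90, 21.8 and 19.2 CPM in young libraries 1, 2 and 3, against 30.7 to 40.1 CPM in WT young epidermis. Young libraries 2 and 3 therefore kept 63.2% and 55.8% of the WT young mean, and the difference between carcinoma and young epidermis did not pass the test (log2 fold change -2.31, SE 0.987, adjusted p = 0.137). It passed in a fit without DKO young 3 and DKO cSCC 3, the libraries whose Trp53 levels go against their labels (-2.25, adjusted p = 0.0143). Neither of them is in this comparison, and leaving them out was guided by values of the gene tested. That fit is therefore no separate support for a difference in Trp53. A count over the whole gene does not show whether the floxed part was lost. Summed fibroblast markers were 568, 3750 and 3490 CPM in young libraries 1, 2 and 3, so the young libraries with more Trp53 RNA also held more of these markers. In carcinoma libraries 1, 2 and 3 the markers were 659, 3290 and 977 CPM. Carcinoma library 2, with the most of them, held Trp53 at 4.24 CPM. The part of other cells in the Trp53 level was not tested. Wwox, intact in this genotype, stood at 13, 7.37 and 12.3 CPM in the carcinomas and 8.86, 8.16 and 7.65 CPM in young epidermis (log2 fold change 0.40, SE 0.712, adjusted p = 0.755).

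The groups also differed in sex. Xist, the RNA that silences an X chromosome in females, stood at 385, 601 and 322 CPM in the young libraries and at 0.146, 0 and 1.5 CPM in the carcinomas. Eif2s3y, a gene of the Y chromosome, stood at 25.6, 20.4 and 20 CPM in the carcinomas and at 0.123, 0 and 0 CPM in the young libraries. The Eif2s3y call was lost with any of the 6 libraries left out. Summed Y-linked genes stood at 62, 91.1 and 71.9 CPM in the carcinomas and 1.17, 1.68 and 1.05 CPM in the young libraries, far lower though not 0. Carcinoma, sex, dissociation protocol and any difference in age cannot be told apart within these 6 libraries. Keratinocyte markers were present throughout: Krt5 stood at 5980, 3020 and 9640 CPM in the carcinomas and 4500, 4020 and 886 CPM in young epidermis. Krt14 stood at 4320, 3770 and 13100 CPM in the carcinomas and 4120, 3020 and 713 CPM in young epidermis. Both keratins were lowest in young library 3, which held the most T cell RNA (below). In bulk RNA, fewer cells of a type and less RNA per cell cannot be told apart.

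Of 18164 genes tested, 969 were higher in the carcinomas (5.33%) and 1118 were lower (6.16%), together 11.5%, at an adjusted p under 0.05 in a fit of all 20 libraries. The 1118 lower genes had a median log2 fold change of -3.05, and 569 of them differed at least 8-fold. The 969 higher genes had a median of 1.33, and 129 of them differed at least 8-fold. The 3 libraries of each group did not overlap for 1940 of the called genes. Lack of overlap was common in these data: over all genes tested, 12.9% were higher and 12.3% lower in every carcinoma than in every young library, called or not. A fit of the 6 libraries alone, with 4 residual degrees of freedom in place of 13, called 4 genes higher and 3 lower, and 1349 and 1563 genes at an unadjusted p under 0.05. All 1885 genes called in the larger fit and tested in the smaller one had the same sign there, with a median adjusted p of 0.129. Both fits compare the same 6 libraries, so the shared sign is no separate support for the calls. A fit without young libraries 2 and 3 keeps only young library 1 in its group. There the median log2 fold change of all genes tested was 0.15, in place of -0.02.

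**Figure D1:**
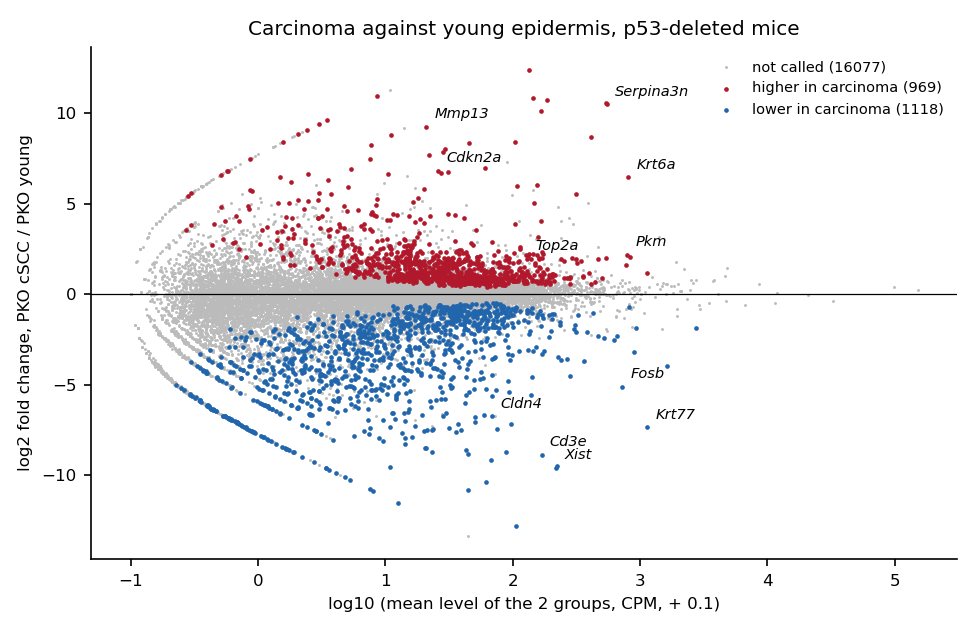
Log2 fold change (PKO cSCC over PKO young) against the log10 mean level in CPM for the 18164 genes tested, each point a gene. Red points are the 969 genes called higher and blue points the 1118 called lower, and the blue points reach larger changes at low levels.

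The 7 genes called by the 6-library fit were named for that call, after their values were seen. Cdkn2a, which encodes the cell cycle inhibitor p16 and the p53 activator Arf, stood at 38.6, 57.1 and 59.2 CPM in the carcinomas and at 0.554, 0.336 and 0.431 CPM in young epidermis. Each carcinoma was far above each young library (log2 fold change 6.83, SE 1.38, adjusted p = 0.00863 in the 20-library fit, and 6.79, SE 0.369, adjusted p = 0.0112 in the 6-library fit). Slc16a3, a lactate exporter, was at 97.3, 41.8 and 98 CPM against 4.24, 4.37 and 4.35 CPM (log2 fold change 4.19, SE 0.863, adjusted p = 0.00931). Gpr35, a G protein-coupled receptor, and Kdm5d, a Y-linked histone demethylase, were the other 2 higher genes, with log2 fold changes of 3.87 and 4.39. Tnxb, an extracellular matrix glycoprotein, was at 3.65, 8.18 and 5.24 CPM in the carcinomas and 219, 361 and 240 CPM in young epidermis (log2 fold change -5.58, SE 0.891, adjusted p = 0.00325). Mycl, a MYC family transcription factor, was at 5.99, 6.21 and 6.63 CPM against 39.9, 67.6 and 50.4 CPM (log2 fold change -3.07). Btg2, an antiproliferative p53 target, was at 26.4, 28.1 and 27.8 CPM against 177, 311 and 220 CPM (log2 fold change -3.10). Within each of these last 2 genes the carcinoma libraries lay close together and well below the young ones.

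Genes of cell division rose together. Of 32 mitosis and cell cycle genes, 24 were called higher and none lower, beside 5.33% of all genes called higher. All 32 had positive log2 fold changes, with a median of 1.89 beside -0.02 for all genes tested. Ube2c, the ubiquitin-conjugating enzyme of the anaphase-promoting complex, stood at 43.2, 12.9 and 31.4 CPM in the carcinomas and 2.58, 3.53 and 6.7 CPM in young epidermis (log2 fold change 2.76, SE 0.514, adjusted p = 0.00596). Foxm1, a transcription factor of mitotic genes, stood at 46.5, 21.3 and 47.0 CPM against 9.6, 7.31 and 11.8 CPM (log2 fold change 2, SE 0.373, adjusted p = 0.00601). Cdc20, an activator of the anaphase-promoting complex, stood at 53.9, 19.9 and 41.2 CPM against 7.14, 7.23 and 8.75 CPM (log2 fold change 2.31, adjusted p = 0.00753). Tpx2, a spindle assembly factor, stood at 101, 32.8 and 80.5 CPM against 15.7, 12.2 and 23.4 CPM (log2 fold change 2.06, adjusted p = 0.00863). For each of these 4 genes carcinoma library 2 was the lowest carcinoma and still lay above every young library. The summed level of the list was 2270, 683 and 1440 CPM in the carcinomas and 546, 375 and 591 CPM in young epidermis. Of 26 DNA replication genes, all 26 had positive log2 fold changes (median 0.85), but 1 was called, Chaf1a, a chromatin assembly factor (log2 fold change 1.48), a call lost without carcinoma library 1 or 3 or young library 1 or 2. Of 26 genes of the DNA damage response, 4 were called higher and none lower, with a median log2 fold change of 1.04. The count of DNA damage genes was 0 without carcinoma library 1, young library 1 or young library 2, 1 without carcinoma library 3 and 9 without carcinoma library 2. The number of mitosis genes called was 10 without carcinoma library 1, 13 without young library 1 and 12 without young library 2. It was 10 with sex and 3 with the T cell marker level as a term of the fit. Sex parts the PKO groups fully, so its term was estimated from DKO cSCC and WT young, which hold both sexes. The T cell level also parts the PKO groups. Counts from these fits, here and below, therefore do not separate sex or T cells from the carcinoma.

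Promoters of mitotic genes are known for CCAAT boxes and for TTTGAA, the cell cycle homology region through which these genes are silenced in resting cells. RefSeq promoters (GRCm38.p6, 250 bases before to 50 after the start) were found for 19 of the 24 called genes, 20 promoters in all. CCAAT, on either strand, was in 16 of these 20 promoters (80.0%), beside 37.4% of all 32851 promoters of the table. TTTGAA, on either strand, was in 14 of 20 (70.0%), beside 17.9% of all promoters, and 14 held both motifs, beside 6.95%. TTTGGCGC, an E2F site, was in none of the 20 and in 0.514% of all promoters. A match describes the letters and shows no binding. The 250 bases before the start are shown for the 3 called genes with the smallest p whose upstream bases hold both motifs, with matches on either strand in capitals. They are Ube2c (chr2:164769679-164769928, plus strand), Cdc20 (chr4:118437344-118437593, minus strand) and Cdk1 (chr10:69352913-69353162, minus strand), the kinase that starts mitosis.
Ube2c: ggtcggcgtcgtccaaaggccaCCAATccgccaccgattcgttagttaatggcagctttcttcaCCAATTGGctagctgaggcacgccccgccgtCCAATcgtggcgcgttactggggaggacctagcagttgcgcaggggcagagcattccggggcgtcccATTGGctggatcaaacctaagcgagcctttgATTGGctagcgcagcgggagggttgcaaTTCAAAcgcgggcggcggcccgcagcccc
Cdc20: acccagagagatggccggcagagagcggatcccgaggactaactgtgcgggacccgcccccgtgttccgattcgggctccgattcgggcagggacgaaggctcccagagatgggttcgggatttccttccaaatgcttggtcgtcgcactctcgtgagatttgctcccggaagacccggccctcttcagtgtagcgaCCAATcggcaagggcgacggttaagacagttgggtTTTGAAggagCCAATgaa
Cdk1: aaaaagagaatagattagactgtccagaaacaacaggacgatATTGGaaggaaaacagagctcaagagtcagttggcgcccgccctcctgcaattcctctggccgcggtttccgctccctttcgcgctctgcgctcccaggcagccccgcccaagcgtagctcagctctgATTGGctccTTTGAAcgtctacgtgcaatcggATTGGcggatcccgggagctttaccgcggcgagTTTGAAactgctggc
Ube2c holds 6 CCAAT matches, which overlap in 1 place, and 1 TTTGAA match. Cdc20 holds 2 and 1, and Cdk1 holds 3 and 2. Cdk1 stood at 51.9, 12.7 and 30.1 CPM in the carcinomas and 5.97, 4.54 and 7.27 CPM in young epidermis (log2 fold change 2.41, SE 0.521, adjusted p = 0.0111).

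Glycolytic genes rose. Of 18 genes, 13 were called higher and none lower, 17 had positive log2 fold changes, and the median was 1.57. Their summed level was 6150, 6310 and 6340 CPM in the carcinomas and 1900, 1880 and 1890 CPM in young epidermis, with no overlap. An exact permutation test cannot go below p = 0.1 with 3 against 3 libraries, the value it gave here. Pkm, pyruvate kinase of the last step, stood at 1280, 1370 and 1220 CPM in the carcinomas and 276, 285 and 286 CPM in young epidermis (log2 fold change 2.19, SE 0.309, adjusted p = 0.00203). Eno1, enolase, stood at 725, 716 and 794 CPM against 220, 183 and 175 CPM (log2 fold change 1.95, SE 0.24, adjusted p = 0.000996). Tpi1, triose phosphate isomerase, stood at 190, 224 and 277 CPM against 64.3, 69.6 and 73.1 CPM (log2 fold change 1.74, adjusted p = 0.00181). Pgk1, phosphoglycerate kinase, stood at 272, 288 and 259 CPM against 75.1, 56.6 and 70.6 CPM (log2 fold change 2.02, adjusted p = 0.00273). In all 4 genes the lowest carcinoma was well above the highest young library. Glycolytic genes have many processed pseudogenes, so how the estimation split their reads is uncertain. The number called ranged from 11 to 13 with each of the 6 libraries left out in turn. It was 4 with a sex term and 5 with a T cell term.

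Other metabolic lists moved less. Their counts are to be read beside 5.33% of all genes called higher and 6.16% called lower. Of 20 genes of amino acid and one-carbon metabolism, 7 were called higher and none lower, with a median of 1.09. Asns, asparagine synthetase, stood at 41.6, 78.8 and 63.5 CPM in the carcinomas and 11.9, 12.9 and 10 CPM in young epidermis (log2 fold change 2.40, SE 0.366, adjusted p = 0.00274). Shmt2, the mitochondrial serine hydroxymethyltransferase, stood at 174, 89.5 and 172 CPM against 38.5, 34.3 and 43.1 CPM (log2 fold change 1.91, SE 0.36, adjusted p = 0.00627). Trib3, a pseudokinase induced by amino acid shortage, rose from 1.41, 2.02 and 1.1 CPM to 7.23, 9.69 and 4.9 CPM (log2 fold change 2.27). Each of these 3 genes separated the groups without overlap. Of 18 hypoxia genes, 6 were called higher and 1 lower. Car12, a carbonic anhydrase of the cell surface, stood at 244, 128 and 209 CPM against 62.3, 19.2 and 19.7 CPM (log2 fold change 2.52, SE 0.476, adjusted p = 0.00634). Of 26 nuclear genes of oxidative phosphorylation, 3 were called higher and none lower, and 25 had positive log2 fold changes with a median of 0.46. Of 23 genes of the antioxidant factor NRF2 and of glutathione, 4 were called higher and 2 lower. Akr1b8, an aldo-keto reductase, stood at 95.5, 37.4 and 44.3 CPM against 2.28, 2.52 and 3.25 CPM (log2 fold change 4.45, SE 0.588, adjusted p = 0.00135). Gpx2, a glutathione peroxidase, stood at 11.8, 73.1 and 19.7 CPM against 1.91, 0.168 and 0.478 CPM (log2 fold change 5.33). The amino acid count was 4 without carcinoma library 3, 4 without young library 1 and 3 without young library 2, and the hypoxia count 3 without young library 1 or 2.

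**Figure D2:**
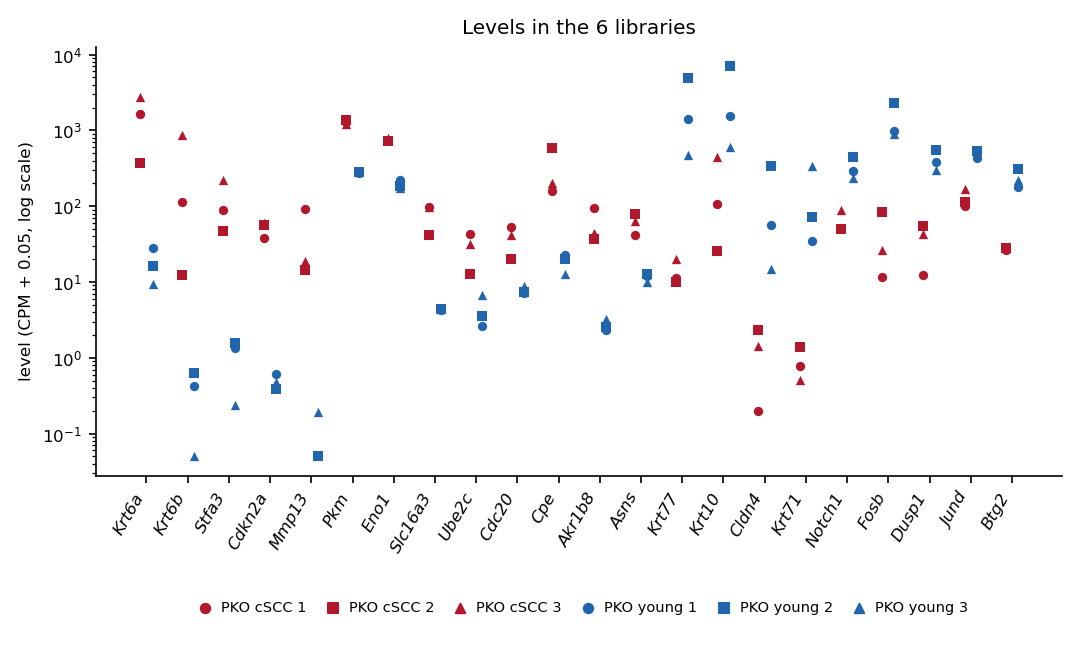
Levels in CPM (plus 0.05, log scale) of 22 genes in each of the 6 libraries, carcinomas in red and young epidermis in blue, with 1 symbol per replicate number. The groups do not overlap for any of these genes: Pkm lies at 1220 to 1370 CPM in the carcinomas and 276 to 286 CPM in young epidermis. The genes were chosen for display, some of them by a rule that requires no overlap. Over all genes tested, 12.9% were higher and 12.3% lower without overlap.

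The wound keratins Krt6a and Krt6b rose. Of 24 wound and stress genes, 7 were called higher and 2 lower, beside 5.33% and 6.16% of all genes. The summed level of the list overlapped between groups, at 8970, 1630 and 7570 CPM in the carcinomas and 1890, 2170 and 753 CPM in young epidermis (exact 2-sided permutation p = 0.3). Krt6a, the keratin of wound-edge and tumour keratinocytes, stood at 1630, 370 and 2800 CPM in the carcinomas and 27.7, 16.4 and 9.33 CPM in young epidermis (log2 fold change 6.49, SE 0.947, adjusted p = 0.00258). Krt6b, its close paralog, stood at 114, 12.4 and 870 CPM against 0.369, 0.589 and 0 CPM (log2 fold change 10.14, SE 1.80, adjusted p = 0.00497), and reads shared by the 2 copies may have been split between them. Stfa3, a cysteine protease inhibitor, stood at 89.8, 47.5 and 223 CPM against 1.29, 1.51 and 0.191 CPM (log2 fold change 6.96). S100a8 and S100a9, which form the antimicrobial protein calprotectin and are also made by neutrophils, had log2 fold changes of 7.86 and 8.36. Carcinoma library 2 was the lowest of the 3 for Krt6a, Krt6b, Stfa3, S100a8 and S100a9. Macrophage, monocyte and neutrophil markers summed to 2350, 1480 and 3680 CPM in the carcinomas and 5140, 3830 and 1870 CPM in young epidermis. Their median log2 fold change over 22 was -0.04, or 0.43 with a group without counts put at 3 counts. The list pools these cell types, so it does not show neutrophils alone. Sprr1a, a cornified envelope precursor, went the other way, at 2.19, 4.93 and 8.76 CPM against 57.9, 248 and 13.8 CPM (log2 fold change -4.32, SE 0.873, adjusted p = 0.00863). The number called higher was 5 to 9 with each library left out in turn, 3 with a sex term, 1 with a T cell term and 1 in limma voom. The call of S100a9 was lost without young library 2.

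TGANTCA, the site of AP-1 factors, is common in promoters of stress keratinocyte genes. Promoters were found for 5 of the 7 genes called higher, of which 3 of 5 promoters held TGANTCA (60%), and for both genes called lower, of which 3 of 3 promoters held it, beside 7.81% of all promoters. The motif was thus present in genes of either direction. The 250 bases before the start are shown, with TGANTCA in capitals, for the gene of each direction with the smallest p that holds it there: Sprr2d, called higher (chr3:92338890-92339139, plus strand), and Sprr1a, called lower (chr3:92485882-92486131, minus strand).
Sprr2d: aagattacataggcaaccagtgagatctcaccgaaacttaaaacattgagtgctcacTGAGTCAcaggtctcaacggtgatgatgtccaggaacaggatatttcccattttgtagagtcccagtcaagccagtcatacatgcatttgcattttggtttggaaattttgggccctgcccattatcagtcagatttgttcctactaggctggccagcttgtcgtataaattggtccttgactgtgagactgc
Sprr1a: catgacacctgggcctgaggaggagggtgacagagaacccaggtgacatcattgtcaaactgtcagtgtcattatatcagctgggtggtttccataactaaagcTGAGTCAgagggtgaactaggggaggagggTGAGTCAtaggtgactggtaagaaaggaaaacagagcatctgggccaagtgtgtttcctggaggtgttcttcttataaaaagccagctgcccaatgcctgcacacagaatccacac
Sprr2d holds 1 match and Sprr1a holds 2. Sprr2d stood at 0.730, 0.870 and 12.3 CPM in the carcinomas and had no count in young epidermis, at least 75.6-fold higher when the young group is put at 3 counts over its 3 libraries. Carcinoma library 3 held most of that level, and the call was lost without it and without any of the young libraries.

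Differentiation genes gave no uniform direction. Among all genes tested, 5.33% were called higher and 6.16% lower, and some of the counts here lie near these shares. Of 23 cornified envelope and granular layer genes, 1 was called higher and 3 lower. Krt77, a keratin of suprabasal cells and sweat ducts, stood at 11.3, 10.1 and 20.3 CPM in the carcinomas and 1430, 4900 and 477 CPM in young epidermis (log2 fold change -7.35, SE 1.32, adjusted p = 0.00512). Krt10, the keratin of the first suprabasal layers, stood at 108, 25.3 and 453 CPM against 1570, 6980 and 600 CPM (log2 fold change -3.96, SE 1.23, adjusted p = 0.0482). Tgm3, a transglutaminase that cross-links the envelope, rose, at 47.4, 85.8 and 457 CPM against 13.5, 14.5 and 11.7 CPM (log2 fold change 3.89, SE 0.852, adjusted p = 0.0117). The Krt10 call was lost without carcinoma library 1 or 2 and without young library 1 or 2. Of 20 basal keratinocyte genes, 3 were called higher and none lower. Itgb1, the integrin beta 1 chain that anchors basal cells, stood at 356, 751 and 357 CPM against 165, 132 and 146 CPM (log2 fold change 1.72, SE 0.379, adjusted p = 0.0119). Krt15, a keratin of basal and hair follicle stem cells, stood at 131, 384 and 1360 CPM against 2710, 3780 and 614 CPM and did not pass the test (log2 fold change -1.92, adjusted p = 0.1), though it did without carcinoma library 3 (-3.20, adjusted p = 0.0255) and in DESeq2 (-1.92, adjusted p = 0.034). Of 21 barrier lipid genes, 4 were called lower and none higher. Sptlc3, a subunit of the enzyme that starts sphingolipid synthesis, stood at 0.073, 0.638 and 0.922 CPM against 18.8, 50.3 and 4.64 CPM (log2 fold change -5.43, SE 0.933, adjusted p = 0.00454).

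Keratins of the inner root sheath of the hair follicle fell. Of 26 hair follicle and stem cell genes, 8 were called lower and 1 higher, beside 6.16% of all genes called lower, and 6 of the 26 had positive log2 fold changes. The summed level of the list did not follow these calls: it was 8070, 2480 and 3390 CPM in the carcinomas and 3600, 3410 and 2400 CPM in young epidermis, overlapping groups with a log2 ratio of 0.57 (exact 2-sided permutation p = 0.7). Its largest member, Krt17, a stress-inducible keratin of follicles, stood at 6290, 727 and 1870 CPM against 1170, 963 and 428 CPM and did not pass the test (log2 fold change 1.80, adjusted p = 0.0712), though it did without carcinoma library 2, without a low-count filter and in DESeq2. Krt71, a keratin of the inner root sheath, stood at 0.730, 1.33 and 0.461 CPM in the carcinomas and 35.2, 71.0 and 343 CPM in young epidermis (log2 fold change -7.46, SE 1.18, adjusted p = 0.00321). Krt25, another inner root sheath keratin, stood at 0.950, 0.348 and 0.922 CPM against 28.7, 53.7 and 219 CPM (log2 fold change -7.08, SE 1.05, adjusted p = 0.00259). Krt28 and Krt27, of the same sheath, had log2 fold changes of -7.45 and -4.57. For Krt71, Krt25, Krt28 and Krt27 young library 3 was the highest library and no library of either group overlapped. Shh, the ligand of the hedgehog pathway made by growing follicles, stood at 0.146, 0.058 and 0 CPM against 1.54, 1.51 and 6.41 CPM (log2 fold change -5.45, adjusted p = 0.00887). Gas1, a hedgehog co-receptor, rose, at 347, 55.2 and 190 CPM against 44.2, 27.2 and 23.3 CPM (log2 fold change 2.64, SE 0.503, adjusted p = 0.00657). The number of follicle genes called lower was 6 to 9 with each library left out in turn. It was 2 with a sex term or with a T cell term.

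Cell junction genes were lower where they were called. The counts of this paragraph stand beside 5.33% of all genes called higher and 6.16% called lower. Of 36 desmosome and junction genes, none was called higher and 8 lower, and 31 had negative log2 fold changes with a median of -0.81. Their summed level overlapped between groups, at 7530, 4610 and 10300 CPM in the carcinomas and 10800, 17700 and 4240 CPM in young epidermis (exact 2-sided permutation p = 0.5). Young library 3 had the lowest sum of all 6 libraries. Cldn4, a tight junction claudin, stood at 0.146, 2.26 and 1.38 CPM in the carcinomas and 56.5, 341 and 14.6 CPM in young epidermis (log2 fold change -6.73, SE 1.08, adjusted p = 0.00325). Ocln, occludin, stood at 1.17, 2.03 and 5.53 CPM against 39.8, 74.2 and 12 CPM (log2 fold change -3.84, SE 0.678, adjusted p = 0.0049). Tjp1, the scaffold ZO-1, stood at 71.0, 44.7 and 54.3 CPM against 123, 136 and 114 CPM (log2 fold change -1.13, adjusted p = 0.00865). Cdh1, E-cadherin of the adherens junction, stood at 273, 224 and 331 CPM against 585, 757 and 391 CPM (log2 fold change -1.06, SE 0.288, adjusted p = 0.0279). These 4 genes separated the groups without overlap, with young library 2 the highest in each. Of 10 transcription factors of the epithelial to mesenchymal transition (EMT), 1 was called, Snai2, at 57.0, 54.4 and 73.9 CPM against 27.4, 15.1 and 11.2 CPM (log2 fold change 1.79, SE 0.407, adjusted p = 0.0141). Of 30 mesenchymal effector genes, 4 were called higher and 1 lower. Tnc, the matrix protein tenascin C, stood at 482, 234 and 134 CPM against 38.3, 17.7 and 37.3 CPM (log2 fold change 3.18, SE 0.797, adjusted p = 0.0206). Tpm2, a tropomyosin, stood at 205, 210 and 243 CPM against 85.4, 20.5 and 32.4 CPM (log2 fold change 2.25, adjusted p = 0.0213). Vim, vimentin, stood at 93.6, 1050 and 9.16 CPM against 403, 300 and 1990 CPM, with overlapping groups (log2 fold change -1.22). The junction count was 3 without carcinoma library 1 or young library 2, and the mesenchymal count 1 without either of these and 2 without young library 3. The calls were lost for Cdh1 without carcinoma library 1 or 2 or young library 1 or 2, for Snai2 without young library 2, for Tnc without carcinoma library 1 or young library 2, and for Tpm2 without young library 2 or 3.

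Carcinoma library 2 stood apart for several secreted proteins. Serpina3n, an acute phase protease inhibitor, was at 5.11, 3270 and 2.25 CPM in the carcinomas and 0.738, 0.420 and 1 CPM in young epidermis (log2 fold change 10.51, SE 2.48, adjusted p = 0.0164). The groups did not overlap, but the size of the change came from that library, and the call was lost without it and without young library 1 or 2. Col11a2, a fibrillar collagen chain, was at 17.1, 616 and 6.40 CPM against 2.83, 4.62 and 2.63 CPM. Chil1, a chitinase-like secreted protein, was at 196, 1590 and 44.1 CPM against 24.8, 4.54 and 10.3 CPM, and its call was lost without carcinoma library 2 and without young library 2 or 3. A pair of matrix metalloproteases were called higher among 22 matrix protease genes, of which 1 was lower. Over all genes tested, 5.33% were called higher and 6.16% lower. Mmp13, a collagenase, was at 90.9, 14.4 and 19.1 CPM against 0, 0 and 0.144 CPM (log2 fold change 9.27, SE 2.19, adjusted p = 0.0162), with the call lost without young library 1 or 2. Mmp10, stromelysin 2, was at 13.6, 2.49 and 1.27 CPM with no count in young epidermis, at least 94.6-fold higher when the young group is put at 3 counts. Its call was lost without carcinoma library 1 or without any of the young libraries. Cpe, carboxypeptidase E, was at 158, 581 and 200 CPM against 23, 19.9 and 12.9 CPM (log2 fold change 4.07, SE 0.467, adjusted p = 0.000996), a call that held with each of the 6 libraries left out.

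The signalling lists held 1 to 5 called members each, to be read beside the 5.33% of all genes called higher and 6.16% called lower. Of 15 Notch pathway genes, none was called higher and 3 lower. Notch1, the receptor that drives keratinocytes to differentiate, stood at 51.1, 50.5 and 88.5 CPM in the carcinomas and 291, 446 and 236 CPM in young epidermis (log2 fold change -2.36, SE 0.354, adjusted p = 0.00272). Notch3, a related receptor, stood at 7.60, 12.6 and 10.7 CPM against 82.4, 153 and 36.2 CPM (log2 fold change -3.13, SE 0.51, adjusted p = 0.00362). Both receptors were highest in young library 2, and neither overlapped between groups. Of 27 Wnt pathway genes, none was called higher and 4 lower. The ligand Wnt10b stood at 1.68, 0.522 and 0.692 CPM against 5.47, 6.31 and 10.7 CPM (log2 fold change -2.96, SE 0.512, adjusted p = 0.00456). Axin2, a feedback inhibitor and common Wnt target, stood at 17.1, 16.7 and 25.5 CPM against 75.7, 65.7 and 48.5 CPM (log2 fold change -1.68, SE 0.338, adjusted p = 0.00851). Of 16 genes of the EGF receptor family, its ligands and its feedback regulators, 2 were called higher and 3 lower. The ligand Nrg1, neuregulin 1, stood at 48.6, 11.9 and 35.5 CPM against 1.66, 3.62 and 0.861 CPM (log2 fold change 3.98, SE 0.862, adjusted p = 0.0111). The feedback inhibitor Spry2 stood at 5.77, 17.9 and 8.41 CPM against 35.9, 24.5 and 61.1 CPM (log2 fold change -1.92, adjusted p = 0.00959). Of 25 genes of the TGF-beta and activin pathway, 1 was called higher and 4 lower, among them the BMP target Id2 at 7.60, 16.4 and 10.9 CPM against 37.6, 37.1 and 105 CPM (log2 fold change -2.37, SE 0.454, adjusted p = 0.00661). Of 15 YAP/TAZ targets and partners, 1 was called, the DNA-binding partner Tead4 (log2 fold change 2.60, SE 0.57, adjusted p = 0.0117).

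**Figure D3:**
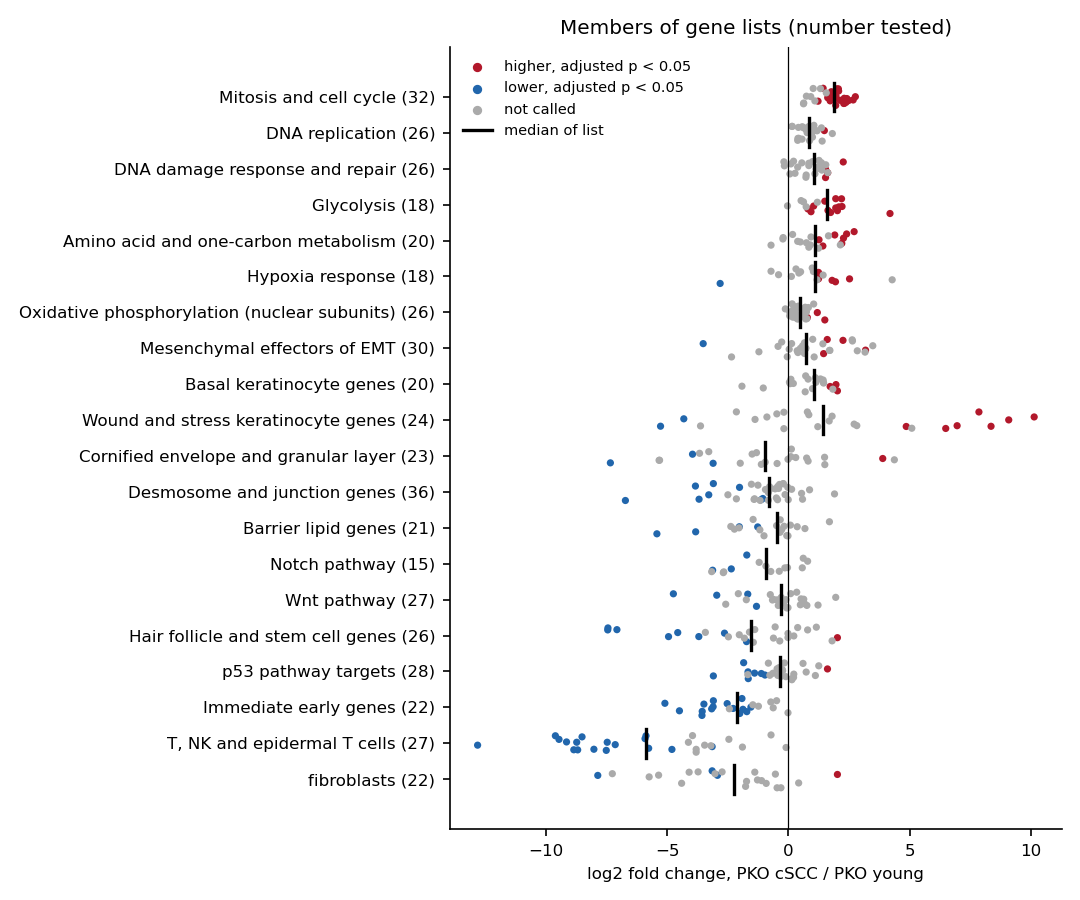
Log2 fold change (PKO cSCC over PKO young) of each member of 20 gene lists, with the number of members tested in brackets, red where called higher, blue where called lower and grey where not called, and a black bar at the median. Mitosis and glycolysis members lie to the right of 0, and immediate early and T cell members to the left.

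Targets of p53 were mostly lower where they were called, and both groups carried the same floxed alleles. Of 28 p53 pathway targets, 7 were called lower and 1 higher, beside 6.16% and 5.33% of all genes, and the median was -0.35. Cdkn1a, the cell cycle inhibitor p21, stood at 25.9, 39.6 and 36.1 CPM in the carcinomas and 73.1, 242 and 52.5 CPM in young epidermis (log2 fold change -1.85, SE 0.504, adjusted p = 0.0282). Bbc3, the cell death gene also called Puma, stood at 4.02, 1.68 and 4.61 CPM against 7.38, 11.5 and 13.7 CPM (log2 fold change -1.66, SE 0.348, adjusted p = 0.00977). Sesn2, a stress-induced regulator of growth signalling, stood at 8.18, 12.2 and 17.5 CPM against 19.1, 73.1 and 29.0 CPM (log2 fold change -1.67, adjusted p = 0.0154). Cdkn1a and Sesn2 were highest in young library 2. The summed level of the list was 1020, 753 and 1380 CPM in the carcinomas and 1660, 3020 and 1090 CPM in young epidermis, with overlapping groups. Young library 3, with Trp53 at 19.2 CPM, had the lowest sum and the lowest Cdkn1a of the young libraries. Young library 2, with Trp53 at 21.8 CPM, had the highest of both. Sesn2 and Btg2 ranked the young libraries as Trp53 did, and Bbc3 was also lowest in young library 1. Cdkn1a averaged 46.2 CPM in WT young epidermis. The part of remaining Trp53 in these levels was not tested. Btg2, given above, is also an immediate early gene. The number called lower was 3 without carcinoma library 1, 4 without carcinoma library 3 and 2 without young library 2. The Cdkn1a call was lost without carcinoma library 1 or 3 or young library 2, and the Sesn2 call without carcinoma library 1 or young library 2.

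Immediate early genes, which are switched on within minutes of a stimulus and also by tissue dissociation, were lower in the carcinomas. Of 22 genes, 15 were called lower and none higher, all 22 had negative log2 fold changes, and the median was -2.14. Fosb, an AP-1 subunit, stood at 11.6, 84.7 and 26.1 CPM in the carcinomas and 976, 2330 and 904 CPM in young epidermis (log2 fold change -5.10, SE 0.723, adjusted p = 0.00208). Jund, another AP-1 subunit, stood at 102, 112 and 167 CPM against 436, 536 and 468 CPM (log2 fold change -1.92, SE 0.248, adjusted p = 0.00123). Zfp36, a protein that destabilises inflammatory messengers, stood at 20.6, 82.3 and 22.2 CPM against 444, 701 and 341 CPM (log2 fold change -3.57, SE 0.618, adjusted p = 0.0046). Carcinoma library 2 was the highest carcinoma for Fosb and Zfp36, and none of the 3 genes overlapped between groups. The summed level was 1760, 3060 and 2430 CPM in the carcinomas and 10200, 14900 and 8570 CPM in PKO young epidermis. It was 4940, 3220 and 2370 CPM in WT young epidermis, dissociated as epidermis too, and 21600, 19900 and 16700 CPM in DKO young epidermis. In WKO young epidermis it was 12600, 6860 and 10500 CPM. The carcinoma range thus overlapped that of WT young epidermis, and the PKO young range lay above both and overlapped that of WKO young. The WT young libraries held T cell markers at 3880, 2850 and 2960 CPM and Krt5 at 494, 591 and 856 CPM. PKO young 3 was like them, at 5570 and 886 CPM. The part of the cell mixture in these sums was not tested. Dissociation protocol and tissue cannot be told apart here. The number called lower was 11 to 15 with each library left out in turn, 7 with a sex term and 8 with a T cell term.

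RNA of T cells was nearly missing from the carcinoma libraries. Of 27 markers of T, NK and epidermal T cells, 17 were called lower and none higher, all 27 had negative log2 fold changes, and the median was -5.88. Their summed level was 122, 66.3 and 33.5 CPM in the carcinomas and 1160, 445 and 5570 CPM in young epidermis (exact 2-sided permutation p = 0.1, the smallest possible). The sum varied widely in other epidermis. It was 1470, 155 and 93.5 CPM in WKO young and 166, 255 and 535 CPM in DKO young. In WT old it was 225 and 601 CPM, and in WT young 3880, 2850 and 2960 CPM. WKO young 3 lay within the carcinoma range, so a low sum is not particular to carcinoma. Cd3e, a chain of the T cell receptor complex, stood at 0.877, 1.16 and 0.115 CPM in the carcinomas and 177, 58.0 and 773 CPM in young epidermis (log2 fold change -8.86, SE 1.56, adjusted p = 0.00474). Cd7, a T and NK cell surface protein, stood at 0, 0 and 0.0576 CPM against 92.4, 31.8 and 512 CPM (log2 fold change -12.83, SE 2.11, adjusted p = 0.00374). Il2rb, an interleukin 2 receptor chain, stood at 0.511, 0.522 and 0.231 CPM against 51.2, 24.3 and 159 CPM (log2 fold change -7.52). In all 3 genes young library 3 was the highest and every carcinoma was near 0. The 12 largest decreases by the naming rule were Cd7, Rimbp2, Prf1, Sit1, Kir3dl1, Nrgn, Xcl1, Xist, Klrk1, Cd3g, Cd247 and Cd3e, most of them known from T and NK cells. Rimbp2, Sit1, Kir3dl1, Nrgn and Xcl1 had no count in any carcinoma and were at least 107-fold lower when that group is put at 3 counts. The call of Kir3dl1 was lost without carcinoma library 1 or 3, and that of Xist without carcinoma library 1 or 2. The number of markers called lower was 14 to 19 with each library left out in turn and 0 in limma voom with quality weights.

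Markers of other cells gave fewer calls, to be read beside 5.33% of all genes called higher and 6.16% called lower. Of 17 Langerhans and dendritic cell markers, 3 were called lower and none higher. Their sums overlapped, at 593, 931 and 1120 CPM in the carcinomas and 493, 750 and 1830 CPM in young epidermis (exact 2-sided permutation p = 0.9). Cd207, langerin, stood at 0.438, 0.464 and 0.346 CPM in the carcinomas and 3.08, 17.7 and 49.7 CPM in young epidermis (log2 fold change -5.80, adjusted p = 0.0302), a call lost without any of the 3 carcinoma libraries or young library 2 or 3. Fibroblast markers summed to 659, 3290 and 977 CPM in the carcinomas and 568, 3750 and 3490 CPM in young epidermis, and 1 of 22 was called higher and 3 lower. Endothelial and mural markers summed to 110, 807 and 63.7 CPM against 334, 284 and 212 CPM, with 1 of 21 called, Notch3, which keratinocytes also express. Carcinoma library 2 was the highest carcinoma for both lists. The 12 melanocyte and Schwann cell markers had a median log2 fold change of -0.04, with sums of 213, 525 and 58.2 CPM against 182, 184 and 241 CPM. Of 9 erythrocyte genes, 4 were called lower, with sums of 13.3, 21.9 and 12.6 CPM against 23, 27.1 and 240.0 CPM. Muscle and adipocyte markers summed to 4.6, 1.97 and 2.94 CPM against 5.78, 18.4 and 28.7 CPM, with 1 of 14 called lower. The part of these cells in the gene results was not tested beyond the fits with a T cell term and without young libraries 2 and 3. Those fits cannot show it, as the T cell level parts the groups and the other fit keeps only young library 1.

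Inflammatory genes were called in both directions. Of 31 cytokine and chemokine genes, 3 were called higher and 2 lower, beside 5.33% and 6.16% of all genes. Il1f9, the cytokine interleukin 36 gamma of keratinocytes, stood at 8.91, 7.77 and 30.7 CPM in the carcinomas and 0.861, 1.43 and 0.144 CPM in young epidermis (log2 fold change 4.31, SE 0.89, adjusted p = 0.00938). Cxcl12, a chemokine of stromal cells, stood at 2.26, 4.41 and 3.92 CPM against 20.8, 15.8 and 26.2 CPM (log2 fold change -2.56, SE 0.488, adjusted p = 0.00657). The 2 genes moved in opposite directions, each without overlap. Of 16 antimicrobial and acute phase genes, 4 were called higher (S100a8, S100a9, Serpina3n and Chil1, given above) and 1 lower, with a median of 2.30. Their summed level was 514, 6180 and 346 CPM in the carcinomas and 202, 138 and 117 CPM in young epidermis, without overlap and highest in carcinoma library 2. Defb6, a beta-defensin and the 1 lower call, stood at 5.04, 6.03 and 6.40 CPM against 133, 74.7 and 43.0 CPM (log2 fold change -3.84, SE 0.779, adjusted p = 0.00865). The 14 genes of MHC class I presentation had a median log2 fold change of 0.04. Of 28 interferon-stimulated genes, 1 was called, Irf1, at 31.3, 30.5 and 30.3 CPM against 96.7, 145 and 75.9 CPM (log2 fold change -1.79, adjusted p = 0.0334). That call was lost without any 1 carcinoma library and without young library 1 or 2.

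**Figure D4:**
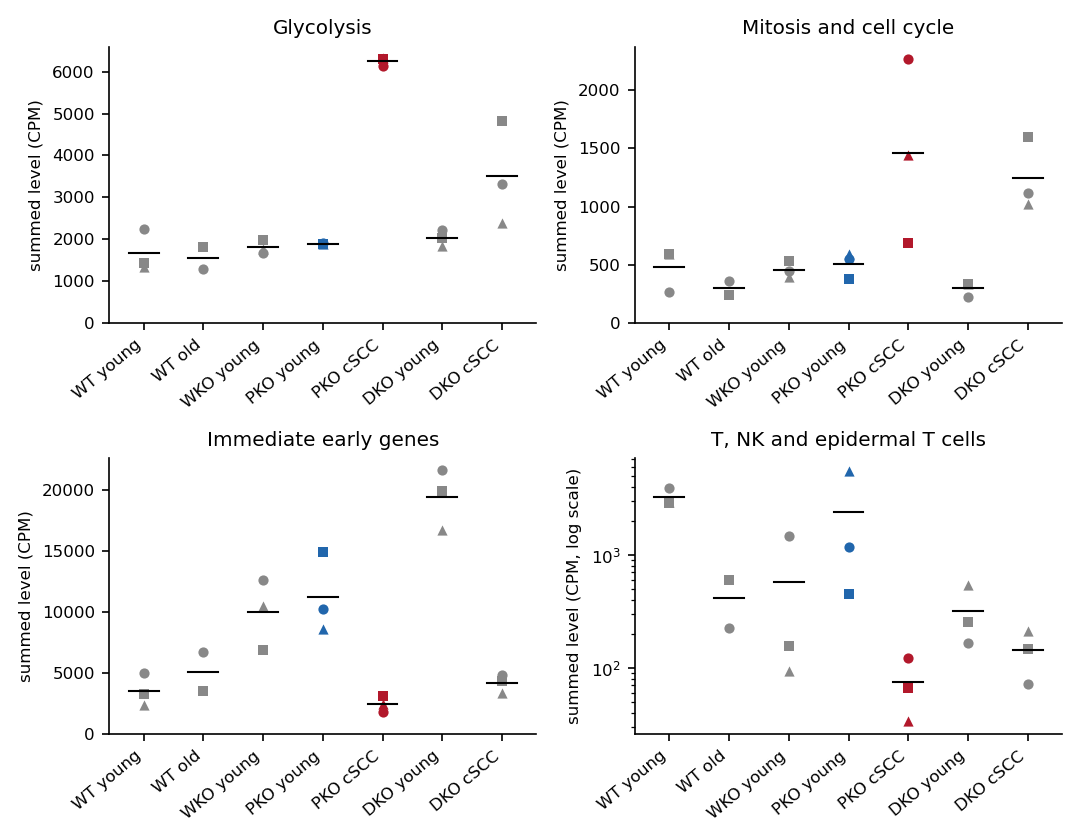
Summed level in CPM of 4 gene lists in each of the 20 libraries by group, with 1 symbol per replicate number, a bar at the group mean, PKO cSCC in red, PKO young in blue and the other groups in grey (log scale in the T cell panel). The 3 PKO carcinomas lie at 6150 to 6340 CPM for glycolysis, above every other library, and at 33.5 to 122 CPM for T cell markers.

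The same contrast in mice that also lacked Wwox gave a reading from separate libraries. Sex was not balanced there either. Y-linked genes summed to 2.3, 91.1 and 99.8 CPM in DKO cSCC 1, 2 and 3, against 2.32, 6.24 and 2.68 CPM in DKO young. The dissociation protocols differed as in PKO, so agreement between the pairs does not separate tumour from protocol or fully from sex. DKO cSCC against DKO young called 594 genes higher (3.27%) and 732 lower (4.03%). Of the genes called higher in the PKO comparison, 279 were also called higher in DKO, 28.8% of the PKO list and 47% of the DKO list. Of those called lower, 281 were shared, 25.1% of the PKO list and 38.4% of the DKO list. The sign was the same in DKO for 902 of the 969 higher genes (93.1%, where 52.7% of all genes tested had that sign) and for 912 of the 1118 lower genes (81.6%, where 47.2% had it). By groups of genes, 27 of 32 mitosis genes were called higher in DKO and 15 of 22 immediate early genes lower. Glycolysis gave 4 calls in DKO, with sums of 3320, 4820 and 2380 CPM in the DKO carcinomas against 2210, 2030 and 1840 CPM in their young epidermis. T cell markers gave 1 call, with sums of 71.4, 147 and 212 CPM in the carcinomas against 166, 255 and 535 CPM. Krt6a had log2 fold changes of 6.49 in PKO and 5.13 in DKO (adjusted p = 0.00567), and Fosb of -5.10 and -4.68 (adjusted p = 0.00334). Cdkn2a was at 134, 55.8 and 0.625 CPM in DKO cSCC 1, 2 and 3, with a log2 fold change of 5.07 (adjusted p = 0.0232). Among the inner root sheath keratins, the DKO log2 fold changes were -2.71 for Krt71 and -1.59 for Krt25, each without overlap between groups, and -0.27 for Krt28 and -0.22 for Krt27, none of them called. The libraries labelled DKO young 3 and DKO cSCC 3 held Trp53 at 21.1 and 45.5 CPM, against their labels. DKO young 3 held Wwox at 7.34 CPM and was closer to PKO young 2 than any other pair of the 20 libraries (Pearson correlation of log2 CPM across genes 0.969). Without both of these DKO libraries the DKO counts were 807 higher and 598 lower.

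The difference between the PKO and DKO tumour effects was tested directly. No gene passed an adjusted p of 0.05 in edgeR, with 2296 genes (12.6%) at an unadjusted p under 0.05, while DESeq2 called 467 genes. The DESeq2 calls with the smallest p included log2 differences of a size such counts cannot measure, as for Rpl3-ps1 (-54.99) and Gm6457 (42.77). The 6 genes with the smallest p among those the naming rule admits were Cxcl12, Nkd1, Rassf5, Cst6, Traf1 and Mtmr1, all with adjusted p of 0.153 to 0.164. Cxcl12 fell in PKO carcinomas and rose in DKO carcinomas (log2 fold changes -2.56 and 1.62, adjusted p = 0.00657 and 0.0468, difference -4.18, SE 0.67). Nkd1, a feedback inhibitor of Wnt signalling, had log2 fold changes of -4.75 in PKO and 1.06 in DKO (difference -5.81, SE 1.01). Cst6, a cysteine protease inhibitor of the epidermis, had log2 fold changes of -4.01 and 1.01 (difference -5.01, SE 0.90). Cxcl12 and Tceal3, the latter chosen after its values were seen, were the 2 genes called lower in PKO and higher in DKO, and no gene was called the other way round. The PKO call of Tceal3 was lost without PKO cSCC 1 or 3 or PKO young 3. With each of 12 libraries left out in turn the number of differing genes was 0 to 11, with 11 without PKO young 2, 3 without PKO cSCC 2, and 1 without PKO cSCC 1 or DKO cSCC 2.

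**Figure D5:**
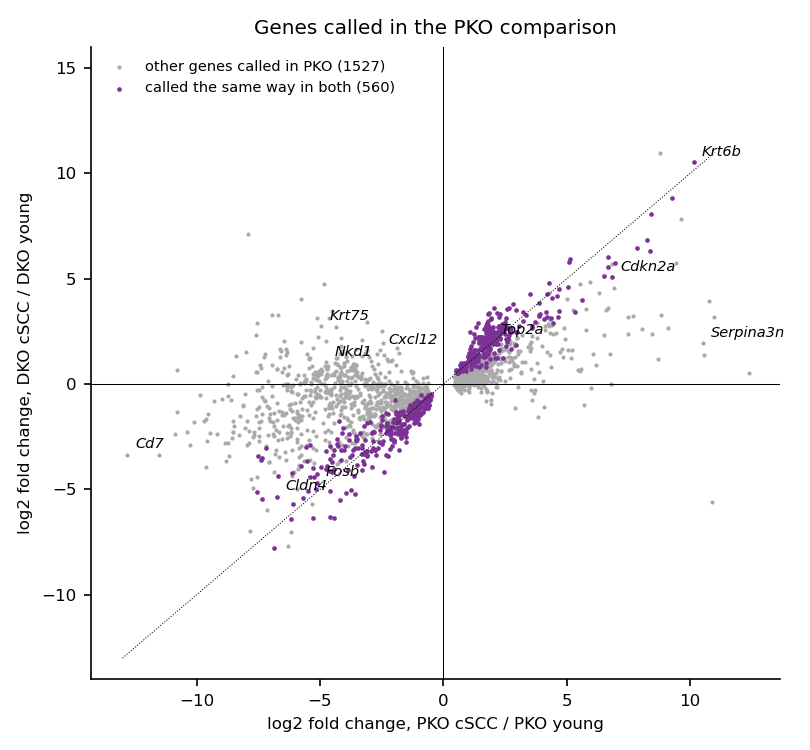
Log2 fold change in DKO (DKO cSCC over DKO young, y axis) against that in PKO (PKO cSCC over PKO young, x axis) for the 2087 genes called in the PKO comparison, each point a gene, with a dotted line where both are equal. Purple points are the 560 genes called the same way in both, and many genes lower in PKO lie near 0 in DKO.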

How the data were processed

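Sorted cells were profiled by stranded total RNA sequencing in 20 libraries of 7 groups. The deposited table holds whole-number estimated counts per gene, which the authors made with Trim Galore 0.4.1, FastQC 0.11.5, Salmon 0.13.1 and the mm39 build, with DESeq2 1.28.1 also named, per the submitters' processing notes. Their order and settings, and any use of molecular identifiers, are not given in the sources used here. Counts were used as deposited. All 37 of the largest values are multiples of 10, so large values are rounded.

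Of 51123 gene identifiers, 48246 had a symbol in the annotation table. Genes passing edgeR's default low-count filter (18164) were tested with its quasi-likelihood F test (edgeR 4.0.16, R 4.3.3), TMM scaling and Benjamini-Hochberg adjustment at 0.05, in 1 fit of all 20 libraries with group as the only term. Adjusted p-values below come from this test unless another is named. Samples were grouped by their labels. The script was tested on simulated data. Promoter sequences are from RefSeq (GRCm38.p6), a different build from that of the counts.

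The comparison, 34 pathway lists and 8 marker lists were chosen with earlier results of these data known. Named genes are the 12 largest called changes each way among genes without library overlap and reaching 5 CPM in a group mean, the same at 100 CPM, up to 4 genes per list with the smallest p, and the 6 smallest p of the difference between genotypes. Others are key markers or were chosen after their values were seen. Alternatives were DESeq2 1.42.0, limma 3.58.1 voom, other scalings, filters and sample sets. Fits with a sex term, with a T cell marker term and without PKO young 2 and 3 were added after seeing the data. Sex and T cell level each part the PKO groups fully, so these terms cannot be told apart from the comparison. The last fit keeps PKO young 1 as the only library of its group, so its counts of calls are not given.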

Additional observations from a re-analysis of the deposited data

How the results depend on the processing

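With each of the 6 libraries left out in turn, the number of genes higher in PKO carcinoma ranged from 388 to 977 and the number lower from 640 to 1064. Leaving out a library of either genotype gave 0 to 11 genes with a different tumour effect in PKO and DKO. The counts of higher and lower genes were 4 and 3 in the fit of 6 libraries, 1577 and 1849 in DESeq2, 388 and 259 in limma voom with quality weights, and 69 and 261 against a log2 change of 1. Without a low-count filter 637 genes were higher. Alternatives added after seeing the data gave 138 and 287 with a sex term, 181 and 275 with a T cell marker term, and 46 and 175 without PKO young 2 and 3. The share of higher genes among the calls was 46.4%. It was 57.1% with 6 libraries, 33.9% without PKO young 2, 34.7% without a filter and 60% in voom. Against a log2 change of 1 it was 20.9%, and with a sex term 32.5%. Without PKO young 2 and 3, the median log2 fold change of all genes moved from -0.02 to 0.15. The number of genes with a different effect in PKO and DKO was 93 without a filter and 467 in DESeq2, which include the extreme differences given above. The cause of these shifts was not tested. Signs reversed for Krt14 (-0.25), Krt5 (-0.53) and Vim (3.87) with a T cell term, for Vim (0.13) without PKO young 3, for Wwox (-0.47) with a sex term and for Mtmr1 (0.00) without PKO young 2 and 3, on the log2 scale, none of them called. With each library left out in turn, Vim ranged from -4.13 (without PKO cSCC 2) to 0.13.

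Same-numbered carcinoma and young libraries did not deviate together (correlations -0.01, -0.1 and -0.27), so the replicate numbers were not taken to pair the samples. With the replicate number as a block, 663 genes were higher and 770 lower in the fit of 20 libraries, and 0 and 0 in the fit of 6. The block left 0 genes with a different effect in PKO and DKO. The labels do not say which animals the replicates came from, so p-values measure the spread between samples. In the fit of 20 libraries that spread is pooled over all 7 groups, not taken from the 6 compared libraries alone.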
